A study of Caenorhabditis elegans with 12 samples.

Results

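The 6 genes described here are the invertebrate-type lysozyme genes of Caenorhabditis elegans, ilys-1 to ilys-6. The family was chosen with earlier results of these data known. Its members were taken by gene symbol, whatever their values, and all 6 were found among the 46778 genes of the count files. Lysozymes are enzymes that cut peptidoglycan, the polymer of bacterial cell walls, and the worm, which eats bacteria, has this invertebrate type beside a larger protist-type group, the lys genes. ILYS-3 is the best known of the 6 in C. elegans: it has been described in the pharynx, the intestine and the scavenger cells called coelomocytes, as an enzyme that acts on Gram-positive bacteria and helps to digest ingested ones, and its induction has been tied to the ERK kinase MPK-1. Particular roles of the other members are not given here.

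RNA was counted in whole adults of 4 groups with 3 libraries each, from biological repeats per the labels. These were daf-2(e1370) animals of strain CF1041 at day 9 and at day 1 of adulthood, and wild-type animals of strain N2 at day 9 and at day 1. In the worm, daf-2 encodes the receptor for insulin-like peptides. Its e1370 allele changes 1 amino acid, which weakens the receptor and leaves the gene in place. Every group was fed OP50, an Escherichia coli strain, which is Gram-negative, and received 50 µM FUdR, an inhibitor of DNA synthesis that stops the production of progeny, from the last larval or the young adult stage. The mutant is represented by 1 strain. The comparisons were day 9 against day 1 within a genotype, daf-2 against wild type within an age, and the interaction of age and genotype. Levels are CPM, counts scaled to a common library size after TMM scaling, given as mean ± SD over 3 libraries. Log2 changes are given ± SE. Adjusted p-values come from the quasi-likelihood test of edgeR, Benjamini-Hochberg adjusted over 15523 genes, and a gene was called where this value was under 0.05.

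Totals ran from 20322128 to 47447136 counts per library, and the 2 deepest libraries were daf-2 day 9 replicates 2 and 3. At these depths 3 counts, the limit that a count of 0 allows, correspond to 0.054 to 0.18 CPM per library. Because whole animals were used, fewer cells of a type and less RNA per cell cannot be told apart. Libraries did not mark strand, and the sources used here do not say how reads that match more than 1 gene were treated, so values of members with similar sequence carry that uncertainty.

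The genes lie in 4 places on the WBcel235 genome. A tandem cluster on chromosome IV, all on the plus strand, holds ilys-3 (2464456 to 2465443), ilys-2 (2467678 to 2468879) and ilys-1 (2470414 to 2471449), with 2234 bases between ilys-3 and ilys-2 and 1534 bases between ilys-2 and ilys-1. On the same chromosome but apart from the cluster are ilys-6 (4062514 to 4063673) and ilys-4 (7895628 to 7897543), both on the minus strand, and ilys-5 (6533490 to 6536840, minus strand) is on chromosome X.

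Gene structure split the members in a way that the choice by symbol did not use. The coding parts of the first 3 coding exons were 34, 113 and 117 bases long in each of ilys-2, ilys-3, ilys-5 and ilys-6. The rest of the coding sequence was 1 block of 153 bases in ilys-2 and in ilys-3. In ilys-5 it was 2 blocks of 57 and 96 bases, and in ilys-6 it was 2 blocks of 57 and 93 bases. The coding length was 139 codons in ilys-2, ilys-3 and ilys-5 and 138 codons in ilys-6. The ilys-4 gene had other exon lengths (73, 131, 96 and 177 coding bases, 159 codons), and ilys-1 was annotated with only 73 codons behind a long untranslated leader. Annotated transcripts numbered 3 for ilys-5, among them 1 noncoding transcript that keeps an intron, 2 for ilys-4 and 1 for each of the others.

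**Figure D1:**
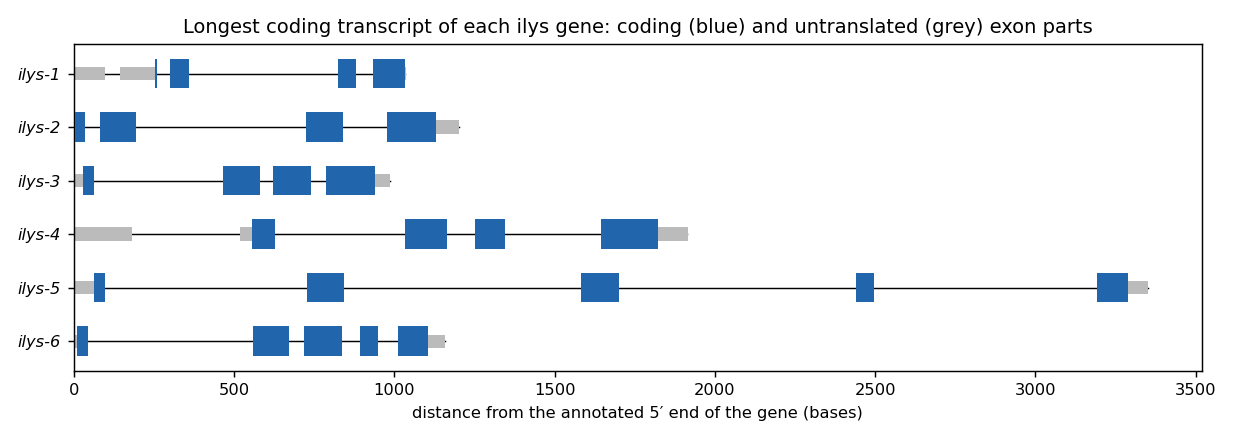
Longest coding transcript of each of the 6 genes, drawn to scale from its annotated 5′ end (x axis, bases), with coding parts in blue and untranslated parts in grey. The coding blocks of 34, 113 and 117 bases recur in ilys-2, ilys-3, ilys-5 and ilys-6, while ilys-5 has the longest span.

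The members differed widely in level, and the leading gene was not the same in the 4 groups. Compared per kilobase of the longest coding transcript, the family's summed level was 31.9 ± 7.33 CPM per kb in daf-2 at day 9, 27 ± 11.1 in daf-2 at day 1, 456 ± 183 in wild type at day 9 and 753 ± 16.2 in wild type at day 1. The ilys-5 gene held 0.678 ± 0.591% of that sum in daf-2 at day 9, 43.6 ± 9.54% in daf-2 at day 1, 71.3 ± 3.34% in wild type at day 9 and 99.1 ± 0.187% in wild type at day 1. The share of ilys-3 was 73.5 ± 11.5% in daf-2 at day 9, 9.77 ± 1.22% in daf-2 at day 1, 21.1 ± 2.36% in wild type at day 9 and 0.0579 ± 0.0117% in wild type at day 1. Most of the remainder in daf-2 was ilys-4, with 23 ± 11.3% at day 9 and 41 ± 2.75% at day 1, against 3.31 ± 1.42% and 0.781 ± 0.115% in wild type at these ages. In daf-2 at day 1 ilys-5 and ilys-4 thus held shares that differed by less than their spread. These shares depend on the length used. With the union of all annotated exons in its place, a choice made after seeing the data, ilys-5 held 0.288 ± 0.251% in daf-2 at day 9, 25 ± 6.96% in daf-2 at day 1, 51.3 ± 4.16% in wild type at day 9 and 97.9 ± 0.431% in wild type at day 1. With that length ilys-4 led in daf-2 at day 1 (54.8 ± 0.388%), and ilys-3 held 35.8 ± 3.31% in wild type at day 9. A rise of the share of one gene can come from a fall of another, so the single genes follow.

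**Figure D2:**
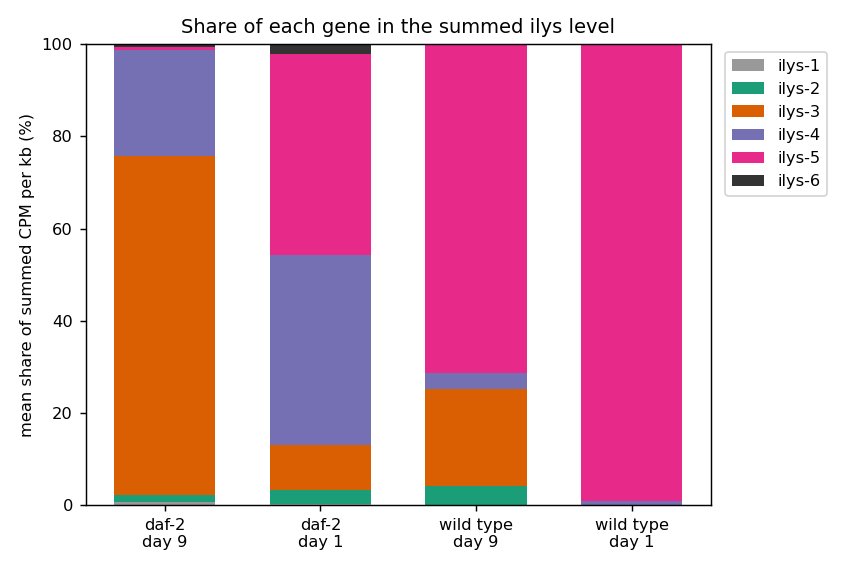
Mean share (y axis, %) of each of the 6 genes in the summed CPM per kilobase of the family, as stacked bars for the 4 groups, 3 libraries each. The bar of wild type at day 1 is almost wholly ilys-5 (99.1%), whereas ilys-3 fills most of the bar of daf-2 at day 9 (73.5%).

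The ilys-5 transcript was lower in daf-2 than in wild type at both ages and near the detection limit in daf-2 at day 9, and it was lower at day 9 than at day 1 in both genotypes. In daf-2 at day 9 its counts were 0, 9 and 7, or 0, 0.162 and 0.145 CPM. In daf-2 at day 1 it stood at 9.45, 8.11 and 2.61 CPM, in wild type at day 9 at 162, 265 and 108 CPM, and in wild type at day 1 at 397, 401 and 414 CPM. No 2 of the 4 groups overlapped, and the wild-type libraries were spread less at day 1 than at day 9. The group means were 0.102 ± 0.0891, 6.72 ± 3.62, 178 ± 79.8 and 404 ± 8.9 CPM in the same order (n = 3 each).

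Relative to wild type, ilys-5 was lower in daf-2, with log2 changes of -10.45 ± 0.63 at day 9 (adjusted p = 1.4e-06) and -5.91 ± 0.46 at day 1 (adjusted p = 7.4e-06). The 95% interval at day 9 was -11.83 to -9.08, and by size the change ranked 9 among the 15523 genes tested. With age it also fell, with -5.72 ± 0.65 in daf-2 (adjusted p = 3.7e-05) and -1.18 ± 0.37 in wild type (adjusted p = 0.0155). In wild type this fall was no longer called when replicate 1 (-1.12, adjusted p = 0.0542) or 3 (-0.92, adjusted p = 0.0608) of day 9 was left out, or with total-count scaling (-0.82, adjusted p = 0.0665), a scaling that moves the median of all genes in this comparison by 0.35. The interaction, which is the daf-2 ageing change less the wild-type one, was -4.54 ± 0.79 (adjusted p = 0.00757).

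The tandem pair ilys-3 and ilys-2 was near the detection limit in young wild type and rose with age there. The rise of ilys-3 was present in both genotypes, that of ilys-2 was called in wild type but not in daf-2. The ilys-3 gene had 15.9, 12.2 and 7.38 CPM in daf-2 at day 9 and 1.65, 1.32 and 0.814 CPM in daf-2 at day 1. In wild type the libraries gave 50.4, 61.7 and 28.9 CPM on day 9 and 0.26, 0.18 and 0.205 CPM on day 1, the last from 5, 3 and 6 counts. The 4 groups did not overlap, in the order wild type day 9, daf-2 day 9, daf-2 day 1 and wild type day 1 from high to low.

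With age, ilys-3 rose by 3.22 ± 0.36 in daf-2 (adjusted p = 3.4e-05), a 9.3-fold difference, and by 7.74 ± 0.47 in wild type (adjusted p = 2.9e-07). Its difference between genotypes had opposite signs at the 2 ages. In daf-2 it was lower than in wild type by a log2 change of -2.0 ± 0.31 at day 9 (adjusted p = 0.00118) and higher by 2.53 ± 0.54, or 5.76-fold, at day 1 (adjusted p = 0.00915). The interaction was -4.52 ± 0.61 (adjusted p = 0.00183).

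The ilys-2 gene was low in every group but one. Its daf-2 levels were 0.32, 0.162 and 0.207 CPM in the day 9 libraries and 0.289, 0.211 and 0.471 CPM in those of day 1. The wild-type levels were 7.47, 11.3 and 7.79 CPM in the day 9 libraries and 0.417, 0.12 and 0.0342 CPM in those of day 1, the last from 8, 2 and 1 counts. Only the wild-type day 9 libraries stood apart, and the other 3 groups overlapped. Since ilys-2 passed the filter on low counts through that group alone, its calls there follow in part from its being tested at all. It rose with age by 5.62 ± 0.55 in wild type (adjusted p = 6.8e-06), with 6.96 without wild-type day 1 replicate 1 and 4.98 without wild-type day 1 replicate 3. In daf-2 the change was -0.58 (95% interval -1.82 to 0.66, adjusted p = 0.429).

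Against wild type, ilys-2 was lower in daf-2 at day 9 (-5.32 ± 0.50, adjusted p = 3.2e-05). At day 1 the difference was 0.88 (95% interval -0.54 to 2.30, adjusted p = 0.359), and it was called without wild-type day 1 replicate 1 (2.23, adjusted p = 0.0399) but stood at 0.25 without wild-type day 1 replicate 3. The interaction was -6.20 ± 0.81 (adjusted p = 0.00152), and -7.54 and -5.56 without these same libraries. Per kilobase, the ratio of ilys-3 to ilys-2 was 49.4, 74.9 and 35.5 in the daf-2 day 9 libraries and 5.69, 6.22 and 1.72 at day 1. In wild type it was 6.71, 5.45 and 3.69 at day 9 and 0.622, 1.49 and 5.98 at day 1, where it rests on at most 8 counts per gene and library. In daf-2 the ratio rests on 8, 9 and 10 counts of ilys-2 at day 9 and on 7, 4 and 11 at day 1. The daf-2 day 9 libraries thus lay above all others in this ratio, which was not tested.

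The ilys-4 gene differed by small amounts, with log2 changes from -1.85 to 1.19 over the 5 comparisons. Its levels were 5.2, 4.02 and 7.05 CPM in daf-2 at day 9, 11.5, 9.16 and 5.14 CPM in daf-2 at day 1, 10.4, 10.4 and 11 CPM in wild type at day 9 and 5.1, 3.84 and 4.99 CPM in wild type at day 1. The wild-type ages did not overlap, and neither did the genotypes at either age, while the daf-2 ages did. With age it changed by -0.66 in daf-2 (95% interval -1.26 to -0.06, adjusted p = 0.0692) and rose by 1.19 ± 0.28 in wild type (adjusted p = 0.00363). The daf-2 change was called without daf-2 day 1 replicate 3 (-0.97, adjusted p = 0.0073), without daf-2 day 9 replicate 3 (-0.91, adjusted p = 0.0307) and with DESeq2 (-0.65, adjusted p = 0.0499).

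Between genotypes, ilys-4 in daf-2 differed from wild type by -0.97 ± 0.28 at day 9 (adjusted p = 0.0421) and by 0.88 ± 0.28 at day 1 (adjusted p = 0.0531). The day 9 call was lost with the replicate number as a block over all 12 libraries (adjusted p = 0.0542). It was kept with this block in a fit of only the 6 day 9 libraries, added after seeing the data (-1.01, adjusted p = 0.0103). The call was also lost without any one of wild-type day 1 replicate 3, wild-type day 9 replicates 1, 2 or 3, daf-2 day 1 replicate 2 or daf-2 day 9 replicates 1 or 2 (adjusted p up to 0.147). The day 1 difference was called with DESeq2 (adjusted p = 0.0277) and without daf-2 day 1 replicate 3 (1.12, adjusted p = 0.00877). It was likewise called with upper-quartile (0.91, adjusted p = 0.0475) or total-count scaling (0.90, adjusted p = 0.0468), with a minimum count of 30 (0.89, adjusted p = 0.0476) and without daf-2 day 9 replicate 2 or 3 (0.88, adjusted p = 0.0459 for each). The interaction was -1.85 ± 0.39 (adjusted p = 0.0192), with no call when wild-type day 1 replicate 2 (-1.73, adjusted p = 0.0506) or daf-2 day 1 replicate 1 (-1.58, adjusted p = 0.0516) was left out.

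The ilys-4 gene lies inside the span of atic-1, on the opposite strand, and shares 0 annotated exon bases with it. Since strand was not marked, reads from unspliced atic-1 RNA cannot be told apart from ilys-4 reads there. The levels of atic-1 were 109 ± 16 CPM in daf-2 at day 9, 135 ± 9.87 in daf-2 at day 1, 30.1 ± 2.96 in wild type at day 9 and 96.8 ± 42.7 in wild type at day 1. With age, atic-1 changed by -0.31 in daf-2 (adjusted p = 0.357) and -1.68 in wild type (adjusted p = 2.8e-04). For ilys-4 these values were -0.66 and 1.19. In daf-2 against wild type atic-1 changed by 1.85 at day 9 (adjusted p = 7.9e-04) and 0.48 at day 1 (adjusted p = 0.224). For ilys-4 these were -0.97 and 0.88. The interaction was 1.37 for atic-1 (adjusted p = 0.0541) and -1.85 for ilys-4. A part of atic-1 RNA in the ilys-4 values was not tested.

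The ilys-1 and ilys-6 genes were near the detection limit everywhere and did not pass the filter on low counts. They were thus not among the genes tested, and fits without the filter are given only in the last section. Counts of ilys-1 were 0, 8 and 5 in daf-2 at day 9, 0, 0 and 1 in daf-2 at day 1, 2, 0 and 0 in wild type at day 9 and 3, 0 and 2 in wild type at day 1. The groups overlapped in each comparison. The third gene of the cluster thus showed no detectable counterpart, at this depth, of the high wild-type day 9 levels of ilys-3 and ilys-2. Counts of ilys-6 were 1, 16 and 0 in daf-2 at day 9, 6, 1 and 8 in daf-2 at day 1, 8, 8 and 3 in wild type at day 9 and 0, 0 and 0 in wild type at day 1. Over the 3 libraries of wild type at day 1, 3 counts are 0.046 CPM. The pooled ilys-6 level was 5.55 times this limit in wild type at day 9 and 4.89 times in daf-2 at day 1. These folds allow for counting error in the group at 0 only, not in the 19 and 15 counts set against it.

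**Figure D3:**
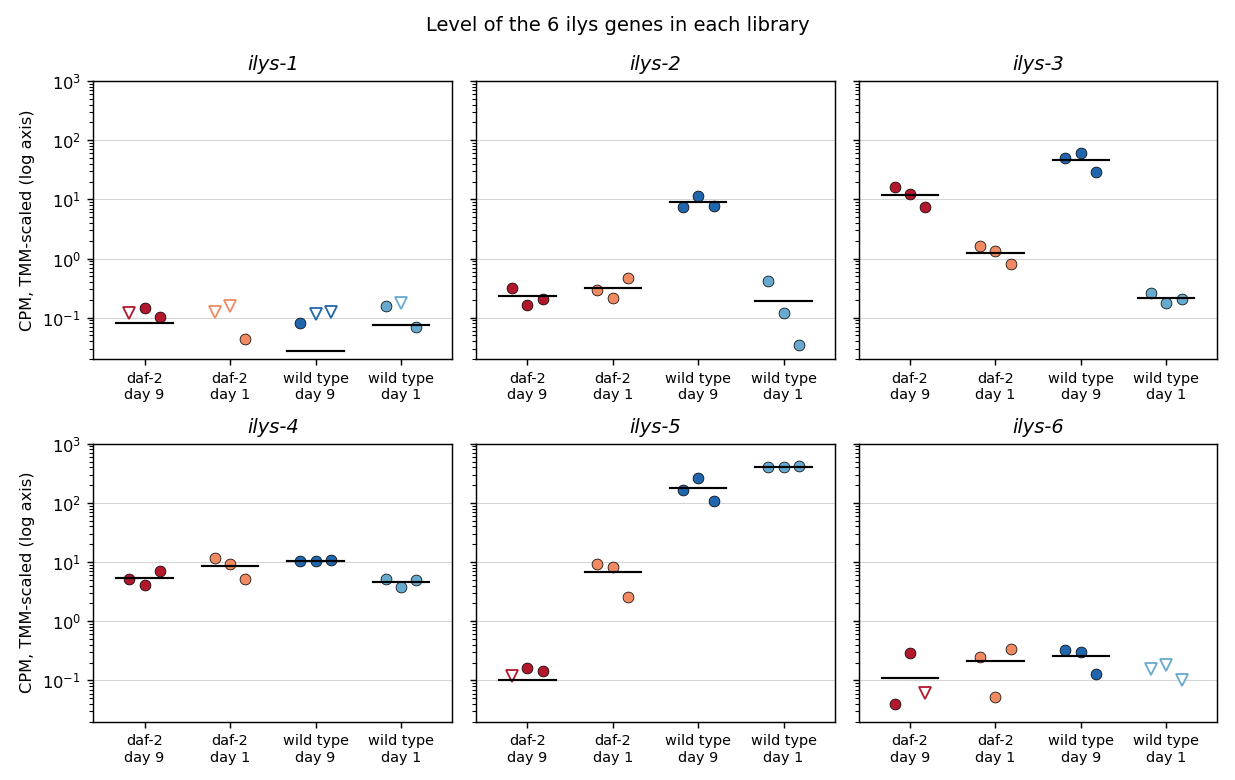
Level of each of the 6 genes (panels) in each library, in TMM-scaled CPM on a log axis, for the 4 groups; points are libraries, lines are group means, and open triangles mark libraries with 0 counts, drawn at the level of 3 counts. The ilys-5 panel steps down to 0 to 0.162 CPM in daf-2 at day 9, against 397 to 414 CPM in wild type at day 1, while ilys-3 and ilys-2 are highest in wild type at day 9.

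Counted over the family, 4 of 6 members were tested, and ilys-2 among them only through its high group, so the counts below describe and do not test the family. With age in daf-2 1 member rose (ilys-3) and 1 fell (ilys-5), where 43.3% of all genes tested were called, 21.9% higher and 21.5% lower. In wild type 3 rose (ilys-2, ilys-3 and ilys-4) and 1 fell, where 56.8% of all genes were called, 31.2% higher and 25.6% lower. Between genotypes, 0 members were higher and 4 were lower in daf-2 at day 9, where 10.8% of all genes were called, 4.54% higher and 6.26% lower. At day 1, 1 was higher (ilys-3) and 1 was lower (ilys-5), where 15.4% of all genes were called, 10.3% higher and 5.06% lower. The interaction called 4 members, each with a negative value, where 5.29% of all genes were called, 0.573% with a positive and 4.72% with a negative value. The comparisons share libraries: wild type at day 9, for example, enters the wild-type ageing, the day 9 genotype and the interaction values, so these are not separate lines of evidence.

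**Figure D4:**
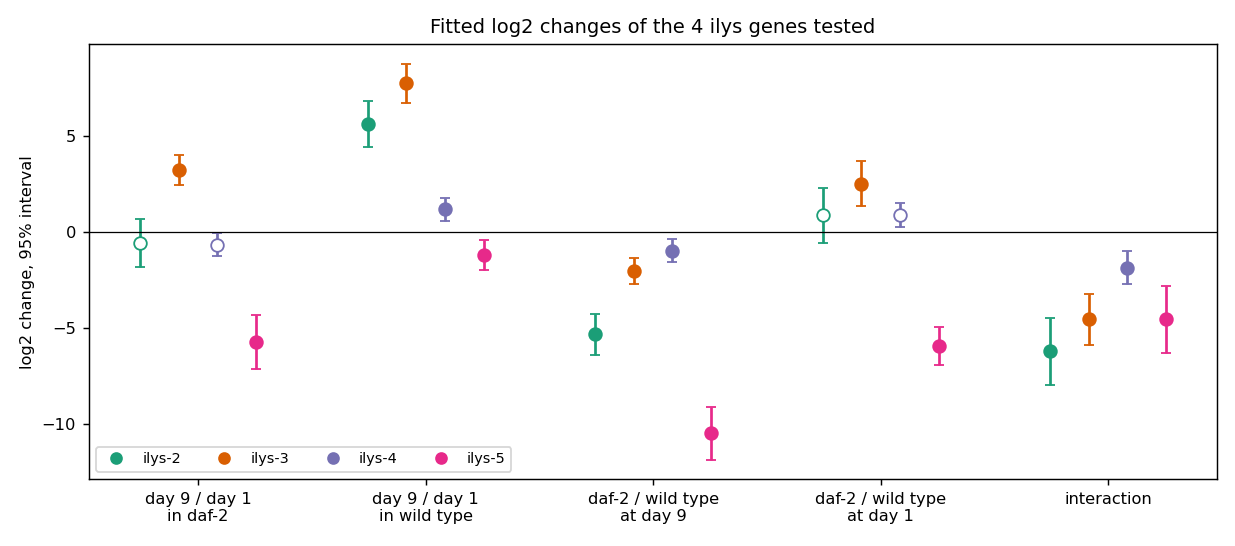
Fitted log2 changes (y axis) of the 4 genes tested, with 95% intervals, for the 2 ageing comparisons, the 2 genotype comparisons and the interaction; filled points were called at an adjusted p under 0.05 and open points were not. All 4 points of the day 9 genotype comparison and of the interaction lie below 0, from -10.45 to -0.97 and from -6.20 to -1.85.

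Where a gene next to a member was tested along with it, its changes were smaller, atic-1 apart. Beside the cluster, cdh-10, a cadherin gene 1086 bases from ilys-3, averaged 2.9 ± 0.365 CPM in daf-2 at day 9, 1.07 ± 0.414 in daf-2 at day 1, 2.14 ± 0.917 in wild type at day 9 and 0.958 ± 0.529 in wild type at day 1. It rose with age in daf-2 by 1.42 ± 0.44 (adjusted p = 0.0204), with 1.12 ± 0.45 in wild type (adjusted p = 0.05) and no call between genotypes. On the other side of the cluster grd-16, a hedgehog-related gene, was at or under 0.222 CPM on average in every group and was not tested. The neighbour of ilys-5, the homeobox gene ceh-60, had 6.75 ± 1.66 CPM in daf-2 at day 9, 12 ± 2 in daf-2 at day 1, 12.4 ± 1.21 in wild type at day 9 and 12.5 ± 0.648 in wild type at day 1. It was lower in daf-2 than in wild type at day 9 (-0.88 ± 0.19, adjusted p = 0.0114) and fell with age in daf-2 (-0.83 ± 0.19, adjusted p = 0.0046), both in the direction of ilys-5. Between genotypes at day 1 it was not called (-0.06, adjusted p = 0.843), where the log2 change of ilys-5 was -5.91. Near ilys-6, the hedgehog-related gene wrt-5 rose with age in wild type by 0.61 ± 0.13 (adjusted p = 0.00216) and was lower in daf-2 at day 9 (-0.50 ± 0.13, adjusted p = 0.0281). For arp-11, beside ilys-4, 0 of 5 comparisons gave a call (adjusted p = 0.125 to 0.786). The remaining neighbours, srt-73 and the piRNA gene 21ur-14878 at ilys-4, T14E8.2 at ilys-5 and fbxb-55 at ilys-6, averaged at most 0.149 CPM in a group and were not tested.

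The genes with the most similar course over the 12 libraries were found by the root mean square difference of log2 CPM, each gene centred on its own mean, which is a description of likeness and no test. Since such genes are picked over these same libraries, an order of groups shared with their member follows in part from that choice. For ilys-3 the 3 nearest named genes were cnc-4 (0.84), col-183 (0.90) and chil-18 (0.99). The first encodes an antimicrobial peptide of the caenacin family. It averaged 23.8 ± 6.86 CPM in daf-2 at day 9, 3.85 ± 1.18 in daf-2 at day 1, 80.6 ± 9.18 in wild type at day 9 and 1.57 ± 0.27 in wild type at day 1, the same order of groups as ilys-3. The collagen gene col-183 had 31.3 ± 4.42, 2.44 ± 0.953, 80.8 ± 17.5 and 0.135 ± 0.0588 CPM in these groups, and chil-18, a chitinase-like gene, stayed under 1 CPM on average.

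For ilys-2 the nearest were ora-1 (0.92), nlp-34 (1.12) and cpr-1 (1.13), each nearer than its cluster neighbour ilys-3 (1.95). The gene nlp-34 had 4.72 ± 2.68 CPM in daf-2 at day 9 and 1 ± 0.225 in daf-2 at day 1. Its wild-type levels were 40.9 ± 7.66 CPM at day 9 and 0.915 ± 0.27 CPM at day 1. The cathepsin B-like protease gene cpr-1 had 4.64 ± 1.53 CPM in daf-2 at day 9, 13.7 ± 3.03 in daf-2 at day 1, 288 ± 71.5 in wild type at day 9 and 24.6 ± 14.6 in wild type at day 1. For ilys-4 they were acox-3 (0.22), ttr-46 (0.23) and ttr-6 (0.25), the first an acyl-CoA oxidase gene and the others transthyretin-related genes. The ilys-5 gene had no close match. Its nearest, nspc-19 (2.11), nspc-18 (2.21) and the C-type lectin gene clec-10 (2.25), were 2 or more log2 units away, and all 3 were lower in daf-2 than in wild type at both ages. The nspc genes form a family of small nematode-specific peptides with similar members, so their counts are uncertain. At day 9 clec-10 had 0.071 ± 0.0271 CPM in daf-2 and 11.3 ± 1.72 in wild type. The 3 genes were picked for likeness to ilys-5 over these same libraries, so their difference between genotypes follows in part from that choice. With age in daf-2, clec-10 changed by -0.94 ± 0.51, where ilys-5 changed by -5.72 ± 0.65.

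Of the 10 protist-type lysozyme genes, lys-1 to lys-10, 9 were tested. With age in daf-2 1 rose and 4 fell, beside 21.9% and 21.5% of all genes. In wild type 4 rose and 2 fell, beside 31.2% and 25.6%. The wild-type counts were 4 and 3 with DESeq2, 4 and 1 with upper-quartile and 5 and 1 with total-count scaling. Shares of all genes are those with TMM scaling, here and for the lists below, and counts of all genes moved with the scaling too. With age in wild type 5849 genes were higher and 2967 lower with upper-quartile scaling, and 7061 and 1887 with total-count scaling. TMM gave 4848 and 3970. In daf-2 these counts were 4351 and 2602, then 6241 and 1725, with 3395 and 3330 for TMM. Between genotypes, 0 of the 9 lys genes were higher and 3 lower in daf-2 at day 9, beside 4.54% and 6.26% of all genes. At day 1, 2 were higher and 0 lower, beside 10.3% and 5.06%. The median log2 change of these 9 genes was -0.76 at day 9 and 1.06 at day 1, beside medians of 0.01 and 0.04 over all genes. The abundant lys-7 had 3726 ± 871 CPM in daf-2 at day 9, 795 ± 55.8 in daf-2 at day 1, 5566 ± 713 in wild type at day 9 and 97.5 ± 28.9 in wild type at day 1, the order of groups seen in ilys-3, although its genotypes were not called as different at day 9 (-0.58, adjusted p = 0.119). The low-level lys-10 had 0.0401 ± 0.0221, 0.083 ± 0.109, 2.38 ± 0.705 and 0.0401 ± 0.0357 CPM in these groups, high only in wild type at day 9 as was ilys-2. It too passed the filter on low counts only through that group, so its calls, which are in the counts above, follow in part from its being tested at all. The same limit applies to lys-5, with 0.0397 ± 0.0416, 0.083 ± 0.109, 1.44 ± 0.493 and 0.415 ± 0.234 CPM in these groups. Both lys-5 and lys-10 are among the 3 called lower at day 9.

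Transcripts of the ERK pathway, to which ilys-3 induction has been tied, changed with age by less than ilys-3. With TMM scaling, though not with total-count scaling, more of them fell than rose with age in wild type. Of 8 genes, 1 rose with age in daf-2 and 1 fell, beside 21.9% of all genes higher and 21.5% lower. In wild type 2 rose and 5 fell (3 and 3 with total-count scaling), beside 31.2% of all genes higher and 25.6% lower. The kinase gene mpk-1 had 91.6 ± 5.18 CPM in daf-2 at day 9, 116 ± 19.5 in daf-2 at day 1, 87.3 ± 4.39 in wild type at day 9 and 157 ± 28.3 in wild type at day 1. It fell with age in wild type by 0.85 ± 0.14 (adjusted p = 3.2e-04), with -0.34 in daf-2 (adjusted p = 0.0635). The ETS transcription factor gene lin-1, a target of this kinase, rose in wild type by 0.77 ± 0.15 (adjusted p = 0.00106), with -0.29 in daf-2 (adjusted p = 0.127, interaction -1.07, adjusted p = 0.014). Transcript levels do not report kinase activity, and a part of this pathway in the ilys-3 values was not tested. Of 6 genes of the p38 kinase pathway, 1 rose and 1 fell with age in daf-2 (4 and 0 with total-count scaling) and 4 rose and 1 fell in wild type. Of 11 genes of the insulin pathway and the study's regulators, 3 were higher and 3 lower in daf-2 at day 9, beside 4.54% and 6.26% of all genes. At day 1, 3 were higher and 0 lower, beside 10.3% and 5.06% of all genes. Of 10 genes of endosomes and lysosomes, 0 rose and 3 fell with age in daf-2 (5 and 3 with upper-quartile and 6 and 2 with total-count scaling), and 3 rose and 4 fell in wild type.

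Markers of the tissues in which ILYS-3 has been described were present in every group, with no marker found by name at 0 in any of them. The listed opt-2 (intestine) and cup-10 (coelomocytes) were not found by name and are not counted here. The summed level of 11 intestinal markers ran from 744 to 1259 CPM in daf-2 at day 9, from 3218 to 5224 in daf-2 at day 1, from 1620 to 1825 in wild type at day 9 and from 4161 to 4780 in wild type at day 1. With age 9 of the 11 fell in daf-2 (8 with total-count scaling) and 7 in wild type (8 with DESeq2), where 21.5% and 25.6% of all genes were lower. Between genotypes at day 9, 1 was higher and 3 lower in daf-2, beside 4.54% and 6.26% of all genes. At day 1, 3 were higher and 0 lower, beside 10.3% and 5.06%. The intestinal sum was lower at day 9 than at day 1 in both genotypes, as was ilys-5, whereas ilys-3 was higher. In daf-2 against wild type the sum was lower without overlap at day 9, where all 4 members tested were lower too. At day 1 the sum overlapped. There ilys-5 was lower in daf-2 without overlap, and ilys-3 and ilys-4 were higher without overlap, the last not called. The ilys-2 values overlapped. The marker with the largest CPM difference at day 9 was asp-1, at 160 ± 107 in daf-2 and 813 ± 116 in wild type. The markers cpr-6 (348 ± 80.6 and 294 ± 38.2 CPM) and erm-1 (198 ± 11.5 and 190 ± 4.92 CPM) were not lower in daf-2. The day 9 sum thus does not stand for the intestinal markers as a whole. The part of these shifts in the lysozyme values was not tested.

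Coelomocyte markers changed less. The sum of 4 of them was 18.1 to 27 CPM in daf-2 at day 9, 15.9 to 21.2 in daf-2 at day 1, 21.5 to 31.5 in wild type at day 9 and 12.9 to 19.8 in wild type at day 1, and with age 0 were called in daf-2 and 1 rose in wild type (2 and 4 with upper-quartile scaling, and the same with total-count scaling). Their median log2 change was 0.41 in daf-2 and 0.58 in wild type, against 3.22 and 7.74 for ilys-3. The sum of 11 pharyngeal markers was 33.4 to 40.4 CPM in daf-2 at day 9, 32.2 to 57.3 in daf-2 at day 1, 46.3 to 51.2 in wild type at day 9 and 39.2 to 52.5 in wild type at day 1. Of the 9 of them tested, 0 rose and 2 fell with age in daf-2 and 1 rose and 1 fell in wild type (2 and 1 in each with total-count scaling). Over all genes tested, with TMM scaling, 21.9% were higher and 21.5% lower with age in daf-2, and 31.2% and 25.6% in wild type. With the other scalings the counts of all genes moved too, as given above beside the lys genes. Among markers of other tissues, 5 of 6 body wall muscle and 3 of 8 germ line markers fell with age in daf-2. In wild type 5 and 6 of them fell. With total-count scaling 2 germ line markers rose and 1 fell in daf-2. Epidermal markers fell in 2 of 6 tested in daf-2 (2 rose and 2 fell with total-count scaling) and 3 of 6 in wild type (1 rose and 2 fell with that scaling), and neuronal markers rose in 1 of 8 in daf-2 (2 with upper-quartile or total-count scaling) and 4 of 8 in wild type (7 with total-count scaling, 6 with upper-quartile scaling and 2 with DESeq2).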

How the data were processed

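Each deposited file lists 1 unnormalized whole-number count per gene, per the file headers and the unequal totals. Tools named in the submitters' processing notes, without roles, are RSEM 1.3.1, STAR 2.7.0e and DESeq2 1.22.2, with WBcel235 as the build. Gene models came from the Ensembl annotation of that build. Members and gene lists were chosen with earlier results of these data known.

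All 12 libraries entered 1 edgeR 4.0.16 fit of 4 group means in R 4.3.3, with TMM scaling and a low-count filter (minimum count 10) that left 15523 genes. SE is the log2 change divided by the square root of F. The test was run on simulated data first. No replicate pair agreed within sampling noise (chi-square per degree of freedom 12.2 or more). P-values measure the spread between these biological repeats. Same-numbered day 9 libraries deviated together between genotypes (r = 0.32, 0.13 and 0.54), and for the other comparisons some r was under 0.1. The day 9 values given come from the unpaired fit. A pairing by number entered only the alternatives with a replicate block. Alternatives were DESeq2 1.42.0, 2 other scalings, 2 other filters, a replicate block, fits of only the libraries compared and leaving out each library. Named genes were all 6 members, their nearest neighbours, the 3 named genes of most similar course for each member tested, and list members a sentence turns on. Intervals of log2 changes come from the fit and carry the spread between libraries. Limits from 0 counts cover only the counting error of the group at 0. No sequence was used.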

Additional observations from a re-analysis of the deposited data

Results flagged for a closer look

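The change with age differed between the genotypes by the test of the interaction for each of the 4 members tested. On the log2 scale the daf-2 ageing change less the wild-type one was -6.20 for ilys-2, -4.54 for ilys-5, -4.52 for ilys-3 and -1.85 for ilys-4. For ilys-3 both genotypes rose, for ilys-5 both fell, and for ilys-2 and ilys-4 wild type rose while daf-2 was not called. Groups of 3 libraries were too small for the test of single libraries that stand apart.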

How the results depend on the processing

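Of 378 values of members under alternatives, 0 turned direction, 13 lost and 11 gained a call, and 354 kept both. All of the changed calls were of ilys-4, of ilys-5 with age in wild type, or of ilys-2 between genotypes at day 1. With total-count scaling ilys-5 with age in wild type was -0.82 and not called. For ilys-4, the daf-2 ageing change was called with DESeq2 (-0.65), and the day 1 genotype difference with DESeq2 (0.82), upper-quartile scaling (0.91), total-count scaling (0.90) and a minimum count of 30 (0.89), and also without daf-2 day 9 replicate 2 or 3 (adjusted p = 0.0459 for each). The day 9 difference of ilys-4 was not called with the replicate block (-0.97, adjusted p = 0.0542), but was in a fit of only the 6 libraries with the block, added after seeing the data (-1.01, adjusted p = 0.0103). The block changed no other call of a member. The cause of these shifts was not tested.

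With 1 library left out, ilys-5 with age in wild type ran from -1.58 to -0.92. For ilys-4 the range was -0.97 to -0.40 with age in daf-2, 0.62 to 1.12 between genotypes at day 1, -1.21 to -0.78 at day 9 and -2.11 to -1.58 for the interaction, and for ilys-2 at day 1 it was 0.25 to 2.23. Where this left 1 group with 2 libraries, the spread was pooled over all groups.

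Counts of all genes called moved by over 1.5 times in these cases. Total-count scaling gave 1887 lower with age in wild type (3970 with TMM) and 6241 higher and 1725 lower in daf-2 (3395 and 3330). Fits of only the 6 libraries gave 924 higher and 246 lower at day 1 (1600 and 786) and 1150 higher at day 9 (704), and with the block 1420 higher and 2077 lower at day 9 (971 lower with all 12 libraries). DESeq2 gave 1691 lower at day 1 and 451 higher and 1157 lower for the interaction (89 and 732), and a minimum count of 30 gave 147 higher. With 1 library left out, day 1 had 879 to 2044 higher and 239 to 1156 lower, day 9 had 399 to 810 higher and 622 to 1178 lower, and the interaction 29 to 233 higher and 404 to 1097 lower. Upper-quartile scaling moved the median of all genes by 0.17 with age in wild type and 0.13 in daf-2, and total-count scaling by 0.35 in each. Without the filter, ilys-6 with age in wild type had an adjusted p of 0.0235 over 22556 genes, from 19 counts against 0, and the other 9 values of ilys-1 and ilys-6 were not called.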
